A study of Mus musculus with 12 samples.

Results

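The levels described here are from unstimulated and stimulated mouse natural killer (NK) cells. The genes are the Nkrp1 receptors Klrb1, Klrb1a, Klrb1b, Klrb1c and Klrb1f and the Clec2 ligands Clec2d and Clec2i. They were taken by gene symbol from a table of 55487 features, and all 7 passed a filter that 12364 genes passed, a log2 CPM above 0 in 4 samples or more. CPM is the count of reads scaled to a library of 1 M reads (M, mega). Klrb1 passed this filter through the 4 unstimulated and 2 of the YFP- samples, and no YFP+ sample was above it.

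Nkrp1 receptors are C-type lectin-like proteins on NK cells, and the Clec2 (Clr) proteins that some of them bind are lectin-like molecules of the same gene complex. Activating members signal through an adaptor with a tyrosine-based activating motif, while inhibitory members carry a tyrosine motif of their own that recruits phosphatases. Recognition of Clr-b, the product of Clec2d, by the inhibitory receptor NKR-P1B is a known form of missing-self recognition, in which a target cell that keeps the ligand is spared.

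All samples were NK cells of the strain B6.129S4-Ifngtm3.1Lky/J with the genotype given as mut/mut, in which a yellow fluorescent protein (YFP) reporter follows interferon gamma, so the controls carried the reporter allele too. The titles give "HD IL-15" for every sample. The groups were unstimulated cells, and cells given anti-NK1.1 for 6 h and recorded as YFP- or YFP+, with 4 samples each. Both YFP- and YFP+ samples are from 6 h, so they are not successive times. Their levels before stimulation were not measured, so selection by the reporter and a change in level cannot be told apart. Each group has a sample labelled f2, m2, m3 and m4, and nothing says whether such a label stands for 1 mouse, so p-values measure the spread between these samples. The ages of the mice and the meaning of HD are not given in the sources used here. Anti-NK1.1 binds the product of Klrb1c, so 1 of the receptor genes described is the target of the stimulus itself.

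The libraries held 32.1 to 54.2 M reads, and the floor of 3 reads was worth 0.0553 to 0.0933 CPM, which covers counting error only. Reads on rRNA-like features made up 25.5% to 32.9% of unstimulated, 15.0% to 28.8% of YFP- and 12.9% to 27.8% of YFP+ libraries, and the libraries labelled m3 were the highest in both stimulated groups. All 8 NK cell markers examined passed the filter in these cells, with summed levels of 10481 to 37559 CPM. Of the 8, 2 were higher and 3 lower in YFP+ than in YFP- samples, where 3.28% of all genes tested were higher and 18.5% lower. Against unstimulated samples, 2 were higher and 4 lower in YFP- samples (30.2% and 20.9% of all genes) and 2 higher and 4 lower in YFP+ samples (27.5% and 33.3%). The call of Klrk1 as higher in the last comparison was lost in 12 of 28 alternatives. Of 6 T cell markers 3 passed, and the list summed to 52.6 to 112 CPM (unstimulated), 67.3 to 93.7 CPM (YFP-) and 63.4 to 94.9 CPM (YFP+). Within that list Trac was higher in both stimulated groups (means of 7.43, 34.3 and 48.4 CPM), and Cd3d and Cd3g were lower in YFP+ than in unstimulated samples. Cd4 and Cd8b1 were at or below 0.184 CPM in every sample. Cd3e, which did not pass the filter, was at 0.123 to 0.816 CPM (unstimulated), 0.326 to 1.49 CPM (YFP-) and 0 to 0.0829 CPM (YFP+). Its YFP+ samples thus lay below all others, while the mean of Trac was highest in YFP+ samples. The call of Cd3d was lost in 4 of 28 alternatives, among them quantile normalization and centring. The 4 B cell markers summed to 0.442 to 4.19 CPM and the 5 myeloid markers to 0.266 to 2.84 CPM, with the lowest means in YFP+ samples. Only Cd79b and Cd14 of these 9 could be tested, and both were lower in YFP+ than in unstimulated samples. The call of Cd79b was lost in 5 of 27 alternatives, among them quantile normalization and leaving out the unstimulated sample f2 or m4. In all YFP- samples Lyz2 and C1qa were at 0. The part of other cell types in the results below was not tested. In such bulk samples, fewer cells of a type and less RNA per cell cannot be told apart.

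The 7 genes lie within 577.3 kb of chromosome 6 (GRCm38, GENCODE M21). Klrb1a (ENSMUSG00000030361) spans 128609227 to 128623533, Klrb1 (ENSMUSG00000079299) 128705836 to 128723059, Klrb1c (ENSMUSG00000030325) 128778485 to 128789215 and Klrb1b (ENSMUSG00000079298) 128813706 to 128826331, all on the minus strand. Clec2i (ENSMUSG00000030365) at 128887588 to 128898167, Klrb1f (ENSMUSG00000030154) at 129045901 to 129057464 and Clec2d (ENSMUSG00000030157) at 129180615 to 129186534 are on the plus strand. RefSeq gives the names NKR-P1A for Klrb1a, NKR-P1G for Klrb1, NK1.1 for Klrb1c, NKR-P1B and NKR-P1D for Klrb1b, Clr-g for Clec2i and Clr-b for Clec2d.

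The start of the coding sequence, from the principal GENCODE M21 transcript, is shown for the 5 receptors because it encodes the cytoplasmic tail by which they signal. Capitals mark the 6 codons that match the immunoreceptor tyrosine-based inhibitory motif (serine, isoleucine, valine or leucine, any residue, tyrosine, 2 residues of any kind, then isoleucine, valine or leucine), and each line holds 60 bases on the coding strand.
Klrb1: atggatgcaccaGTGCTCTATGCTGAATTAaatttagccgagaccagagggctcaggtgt
Klrb1b: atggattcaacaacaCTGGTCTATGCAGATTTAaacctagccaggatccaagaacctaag
Klrb1c: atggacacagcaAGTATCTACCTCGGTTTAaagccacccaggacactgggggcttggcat
Klrb1a: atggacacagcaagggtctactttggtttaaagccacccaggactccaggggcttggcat
Klrb1f: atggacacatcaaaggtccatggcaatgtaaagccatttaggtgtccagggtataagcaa
For Klrb1a and Klrb1c, whose annotation tags a downstream start codon, the sequence begins at the next in-frame ATG, 6 and 48 codons after the annotated one. The pattern began at codon 5 in Klrb1, codon 6 in Klrb1b and codon 5 in Klrb1c, and was not found in these 20 codons of Klrb1a or Klrb1f. Klrb1c is taken below with the activating receptor genes, so a match alone does not mark an inhibitory member. Among 21917 genes with a coding sequence in the same annotation, 1.99% held the pattern in their annotated first 20 codons. A cysteine, any residue, cysteine and proline (CxCP), the sequence by which the kinase Lck binds such receptors, stood within the first 60 codons of Klrb1a, Klrb1b, Klrb1c and Klrb1f and not of Klrb1, against 0.351% of genes. Both shares are counted from annotated starts, while Klrb1a and Klrb1c were read from the later ATG. For these 2 genes the shares are therefore not like for like. A match is a description of the letters and shows no activity.

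The aligned coding sequences fell into related pairs. Klrb1a and Klrb1c were identical at 89.7% of aligned columns, Klrb1b and Klrb1c at 84.1% and Klrb1a and Klrb1b at 82.8%. Klrb1 and Klrb1f matched at 79.8%, Clec2d and Clec2i at 80.7%, and a receptor and a ligand at 49.1% to 51.6%. Such likeness bears on how reads are assigned: at the read length of 150 bases no window of a member's transcripts recurred in another annotated gene, with 1 exception. This was Gm44511, a read-through gene made of Klrb1b and Klrb1c exons, which shared 19.4% of the windows of Klrb1b and 8.73% of those of Klrb1c. Gm44511 held 0 reads in all 12 libraries, and how reads in shared exons were counted is not given in the sources used here. Its exons cover 26.9% of the exon length of Klrb1b and 13.9% of that of Klrb1c. Levels per kilobase below divide by the full exon length. If reads in shared exons were left out, these levels would be too low for both genes.

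In unstimulated NK cells Klrb1c was the most abundant of the 7 genes per kilobase of exon. Its level was 103.9 ± 5.53 CPM per kb (SD, n = 4), followed by Klrb1a at 44.6 ± 4.89, Klrb1f at 33.7 ± 2.08 and Klrb1b at 20.4 ± 3.36. With the full exon length, the ranges of these 4 genes did not overlap. Lengths without the exons shared with Gm44511 were not tried. Clec2i at 2.54 ± 0.381 and Clec2d at 2.33 ± 0.246 CPM per kb overlapped each other, and Klrb1, at 1.08 ± 0.204, lay below both.

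After stimulation the order of the genes changed in both sorted groups. In YFP- samples Klrb1f stood highest at 58.2 ± 10.6 CPM per kb (SD, n = 4), and Klrb1a (28.7 ± 7.44), Klrb1c (25.4 ± 4.23) and Klrb1b (20.8 ± 2.82) each overlapped the next. In YFP+ samples Klrb1a (9.17 ± 1.16), Klrb1f (8.13 ± 2.73) and the ligand gene Clec2i (7.17 ± 3.71) overlapped, and so did Klrb1b (2.28 ± 0.702), Klrb1c (2.20 ± 0.775) and Clec2d (1.11 ± 0.468). Klrb1 remained the lowest in both, at 0.846 ± 0.271 in YFP- and 0.177 ± 0.0994 CPM per kb in YFP+ samples.

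**Figure D1:**
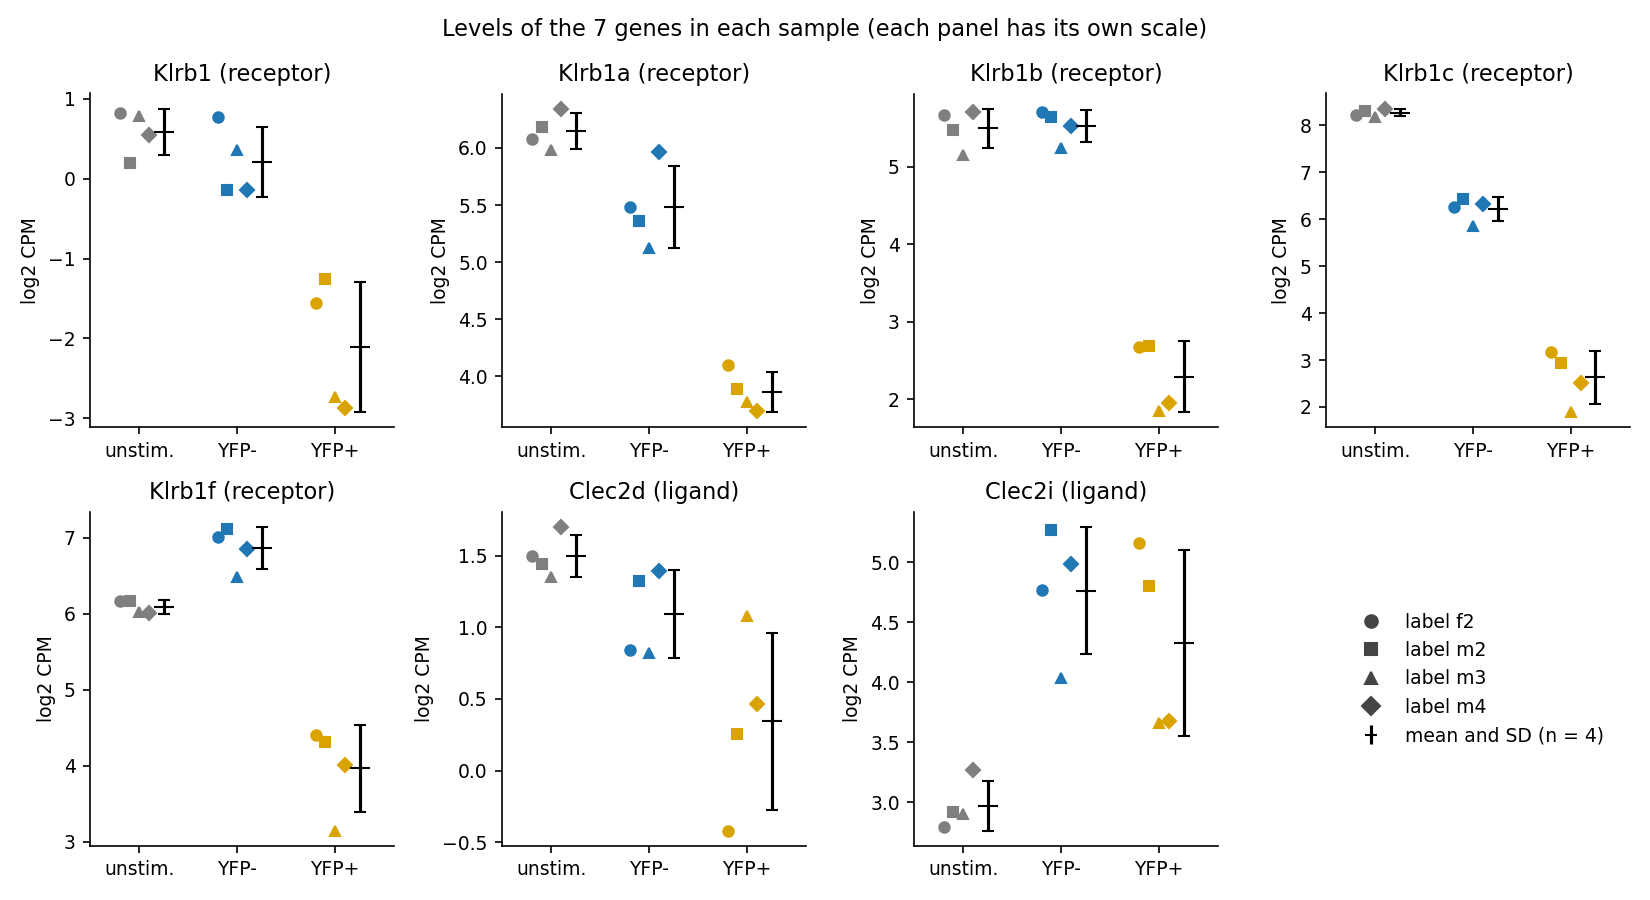
Levels of the 5 receptor and 2 ligand genes in every sample, in log2 CPM (y axis, its own scale in each panel), by group (x axis). Symbols are samples by replicate label and bars are mean and SD (n = 4). In the 5 receptor panels the YFP+ samples lie below every other sample, and in the Clec2i panel the unstimulated samples lie below every stimulated one. How many of all genes tested have groups that stand apart in this way was not counted.

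The activating receptor genes are taken first. Klrb1c, which encodes NK1.1, was at 299, 314, 290 and 327 CPM in the unstimulated samples f2, m2, m3 and m4. It was at 76.6, 86.6, 57.6 and 80.5 CPM in the YFP- samples and at 8.97, 7.61, 3.70 and 5.72 CPM in the YFP+ samples, in the same order. The 3 groups did not overlap, and each of the 4 labels showed the same order of the groups. On the log2 scale YFP- samples differed from unstimulated ones by -2.05 ± 0.23 (SE; limma adjusted p = 8.7e-06), and YFP+ samples differed from YFP- by -3.59 ± 0.23 (limma adjusted p = 1.0e-06). Between YFP+ and unstimulated samples the level was 49.7-fold lower (log2 fold change -5.64 ± 0.23, limma adjusted p = 7.1e-10).

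Klrb1f, whose product is an activating receptor that binds Clr-g among others, had a different order of the groups. Its levels were 72.1, 71.6, 64.9 and 64.3 CPM in unstimulated, 128, 139, 89.1 and 115 CPM in YFP- and 21.2, 19.8, 8.84 and 16.0 CPM in YFP+ samples f2, m2, m3 and m4. The YFP- samples were the highest for all 4 labels and the YFP+ samples the lowest, with no overlap between groups. The rise in YFP- over unstimulated samples was 0.77 ± 0.23 in log2 (1.71-fold, limma adjusted p = 0.014). It was not past the threshold without the samples labelled m2 (limma adjusted p = 0.067) or m4 (limma adjusted p = 0.083). YFP+ samples differed from YFP- by -2.89 ± 0.23 in log2, or 7.44-fold lower (limma adjusted p = 5.1e-06).

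Klrb1a, which encodes the activating receptor NKR-P1A, was at 67.5, 72.7, 63.1 and 81.3 CPM in the unstimulated samples f2, m2, m3 and m4. YFP- samples held 44.8, 41.1, 34.8 and 62.5 CPM and YFP+ samples 17.1, 14.8, 13.6 and 12.9 CPM. The groups did not overlap, although the YFP- sample m4 lay just below the lowest unstimulated sample. The log2 fold change of YFP- over unstimulated samples was -0.66 ± 0.17 (limma adjusted p = 0.0055), and without the samples labelled m2 it was -0.61 (limma adjusted p = 0.051). The change of YFP+ over YFP- was -1.62 ± 0.17, or 3.07-fold lower (limma adjusted p = 3.8e-05).

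Of the inhibitory receptor genes, Klrb1b was the more abundant. Its levels were 50.6, 44.2, 35.5 and 51.9 CPM in unstimulated, 51.9, 49.9, 37.7 and 45.9 CPM in YFP- and 6.40, 6.45, 3.59 and 3.86 CPM in YFP+ samples f2, m2, m3 and m4. Unstimulated and YFP- samples overlapped throughout, and all YFP+ samples lay below both. Between YFP- and unstimulated samples the log2 difference was 0.03 ± 0.21 (limma adjusted p = 0.92), and its sign turned with each of the other scalings tried. Between YFP+ and YFP- samples it was -3.23 ± 0.21, or 9.39-fold lower (limma adjusted p = 1.0e-06).

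Klrb1, which encodes the inhibitory receptor NKR-P1G, rested on few reads. Unstimulated libraries held 67, 43, 68 and 47 reads, YFP- libraries 75, 44, 55 and 44 and YFP+ libraries 16, 22, 5 and 4 in the order f2, m2, m3 and m4. These reads correspond to 1.13 to 1.76 CPM (unstimulated), 0.892 to 1.69 CPM (YFP-) and 0.124 to 0.406 CPM (YFP+), and the last group lay apart from the other two, which overlapped. The change of YFP+ over YFP- was -2.32 ± 0.40 in log2 (limma adjusted p = 0.0011). On the log2(CPM + 1) scale, which compresses low levels, it was -0.80 and still passed (limma adjusted p = 0.0015). Between YFP- and unstimulated samples the difference was -0.38 ± 0.40 (limma adjusted p = 0.45).

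The ligand genes are taken next. Clec2i, which encodes Clr-g, was at 6.92, 7.55, 7.48 and 9.62 CPM in unstimulated, 27.2, 38.6, 16.4 and 31.7 CPM in YFP- and 35.9, 27.9, 12.7 and 12.8 CPM in YFP+ samples f2, m2, m3 and m4. Every stimulated sample lay above every unstimulated one, while YFP- and YFP+ samples overlapped. The rise over unstimulated samples was 1.79 ± 0.34 in log2 in YFP- (3.46-fold, limma adjusted p = 6.3e-04) and 1.36 ± 0.34 in YFP+ samples (2.56-fold, limma adjusted p = 0.0032). Between YFP+ and YFP- samples the difference was -0.44 ± 0.34 (limma adjusted p = 0.39).

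Clec2d, which encodes Clr-b, was at 2.81, 2.71, 2.54 and 3.24 CPM in unstimulated, 1.78, 2.49, 1.75 and 2.61 CPM in YFP- and 0.736, 1.18, 2.10 and 1.37 CPM in YFP+ samples f2, m2, m3 and m4. Those levels came from 36 to 128 reads per library. Only the YFP+ and unstimulated groups did not overlap, with a log2 fold change of -1.15 ± 0.29 (limma adjusted p = 0.0031). The change of YFP+ over YFP- was -0.75 ± 0.29 (limma adjusted p = 0.078). It passed without the YFP+ sample m3, the highest of its group (-0.99, limma adjusted p = 0.018).

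Counted together, 5 of the 7 genes, all of them receptors, were lower in YFP+ than in YFP- samples, where 18.5% of all genes tested were lower and 3.28% higher. The median log2 fold change of the receptors was -2.89, beside -0.19 over all genes tested. That median of all genes moved with the scaling, to 0.07 when each sample was centred on its median, and the share of higher genes among all calls then went from 15.1% to 50.2%. All 5 receptors were called lower under every scaling tried. The comparison of YFP- with unstimulated samples called 2 members higher, Klrb1f and Clec2i (background 30.2%), and 2 lower, Klrb1a and Klrb1c (background 20.9%). The median of the receptors there was -0.38 and that of all genes 0.14.

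The comparison of YFP+ with unstimulated samples called 6 members lower (background 33.3%) and Clec2i higher (background 27.5%). Its receptor median was -2.69, beside -0.03 over all genes. Klrb1 was lower by 2.69 on the log2 scale (SE 0.40, limma adjusted p = 5.6e-05) and Klrb1a by 2.28 (SE 0.17, limma adjusted p = 1.0e-07). Klrb1b was lower by 3.20 (SE 0.21, limma adjusted p = 3.6e-08) and Klrb1f by 2.12 (SE 0.23, limma adjusted p = 3.6e-06). The 3 comparisons share sample groups, so their values are given side by side only.

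**Figure D2:**
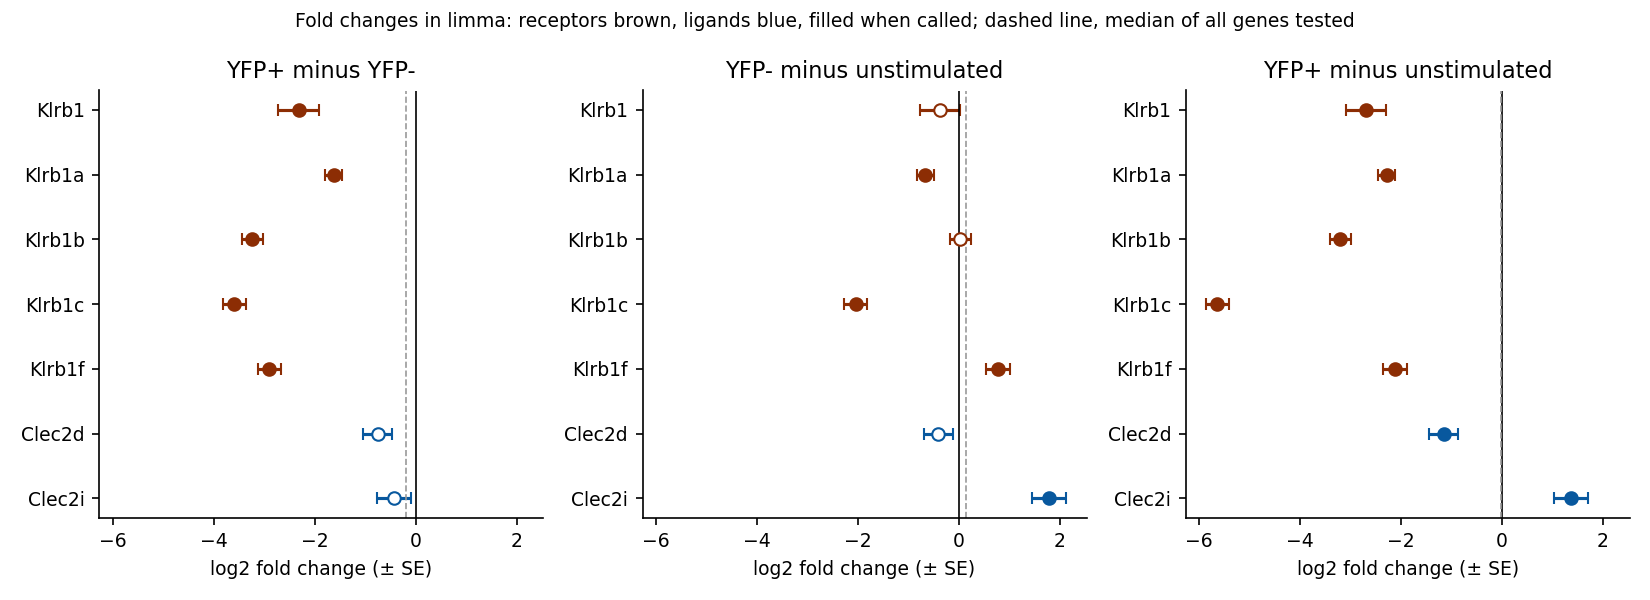
Log2 fold changes of the 7 genes (x axis, with SE bars) in the 3 comparisons, from limma over 12 samples. Receptors are brown and ligands blue, filled symbols passed an adjusted p of 0.05, and the dashed line is the median of all 12364 genes tested; YFP+ minus YFP- shows 5 filled receptor symbols between -3.59 and -1.62 and 2 open ligand symbols.

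The make-up of the receptor pool was set out per kilobase of the full exon length, so the limit given for Klrb1b and Klrb1c holds here too. Summed over the 5 receptor genes, the level was 204 ± 12.9 CPM per kb (SD, n = 4) in unstimulated, 134 ± 20.7 in the YFP- and 22.0 ± 5.13 in the YFP+ samples. Klrb1c made up 51.0 ± 1.12% of this sum in unstimulated, 19.0 ± 0.720% in the YFP- and 9.77 ± 1.37% in the YFP+ samples, with no overlap between groups. The share of Klrb1f was 16.6 ± 1.34%, 43.4 ± 3.13% and 36.3 ± 5.92% in the same order, and that of Klrb1a 21.9 ± 1.14%, 21.4 ± 4.07% and 42.9 ± 7.47%. Klrb1b held 10.0 ± 1.19%, 15.6 ± 1.04% and 10.3 ± 1.20%, and Klrb1 at most 1.16% in any sample. Klrb1c was the largest part of the pool in unstimulated cells, at 49.8% to 52.5% per sample. In YFP+ cells the pool was mostly Klrb1f and Klrb1a, at a lower total. The YFP+ sample m3, with 27.8% of reads on rRNA-like features, had the lowest sum (15.9 CPM per kb) and the largest share of Klrb1a (53.9%).

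**Figure D3:**
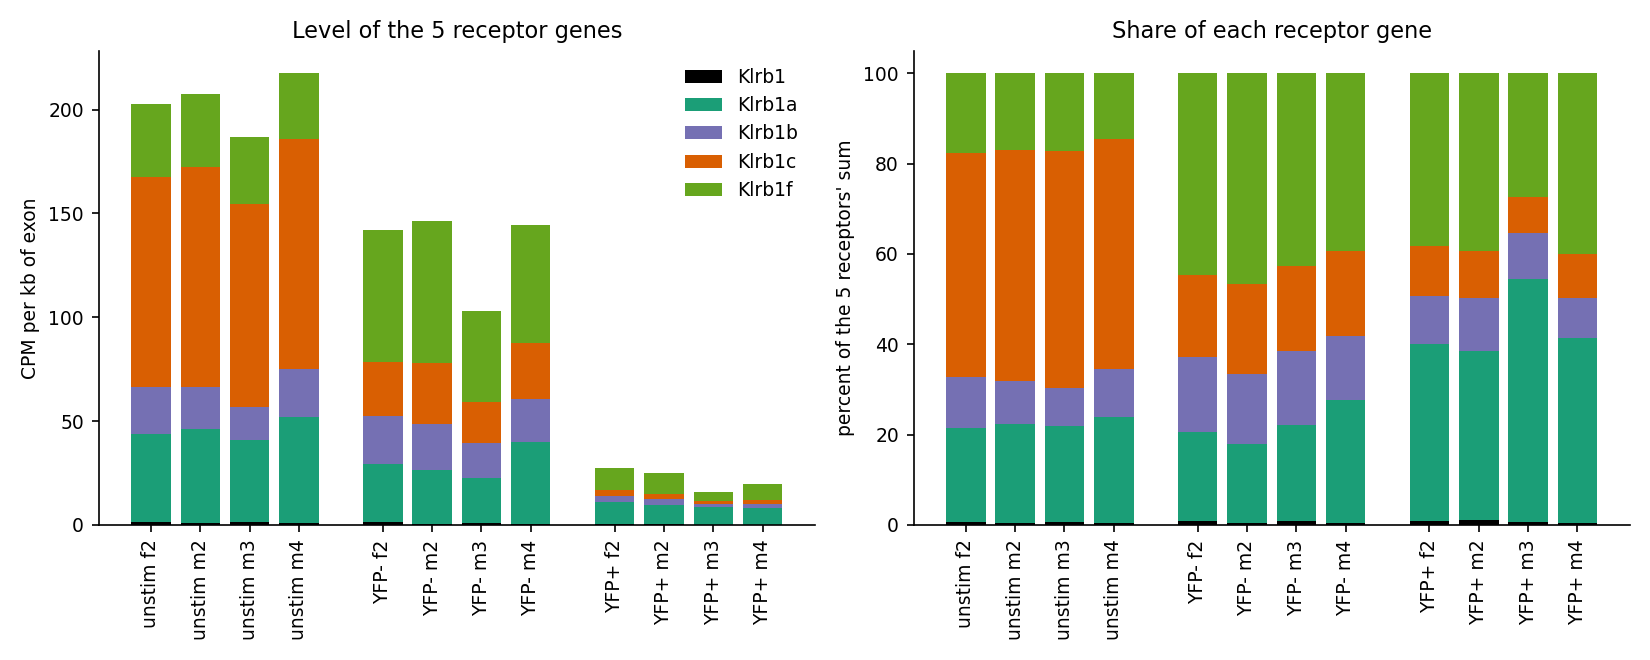
Stacked bars of the 5 receptor genes in each of the 12 samples, as CPM per kb of exon (left, axis from 0) and as a percent of their sum (right). The total has a mean of 204 in unstimulated and 22.0 CPM per kb in YFP+ samples, and the orange part, Klrb1c, makes up 51.0% and 9.77% of the sum.

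Receptor genes were then set against the gene of a ligand they are known to bind, as the difference of log2 CPM within a sample, which does not depend on the library total. Klrb1b minus Clec2d was 4.17, 4.02, 3.80 and 3.997 in unstimulated, 4.85, 4.32, 4.42 and 4.13 in YFP- and 3.10, 2.44, 0.77 and 1.49 in YFP+ samples f2, m2, m3 and m4. All YFP+ samples lay below the other groups. YFP+ differed from YFP- samples by -2.48 (within-group SD 0.76), with a 2-sided exact permutation p of 0.0286 and an adjusted p of 0.0321. YFP- differed from unstimulated samples by 0.43 (exact permutation p = 0.0571, adjusted p = 0.0571), with the groups overlapping.

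Klrb1f minus Clec2i was 3.38, 3.24, 3.11 and 2.74 in unstimulated, 2.24, 1.84, 2.44 and 1.86 in YFP- and -0.76, -0.50, -0.52 and 0.33 in YFP+ samples f2, m2, m3 and m4. The 3 groups stood apart. These values are not scaled by exon length, which sets their sign in YFP+ samples: the mean there was -0.36, and 0.26 per kilobase of exon. Differences between groups do not depend on exon length. The difference of YFP- from unstimulated samples was -1.02 and that of YFP+ from YFP- was -2.46, each with an exact permutation p of 0.0286 and an adjusted p of 0.0321. In the former comparison both genes were higher and Clec2i more so, and in the latter Klrb1f was lower.

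Klrb1 minus Clec2i was -1.97, -2.73, -2.12 and -2.72 in unstimulated, -3.996, -5.42, -3.68 and -5.12 in YFP- and -6.72, -6.06, -6.40 and -6.55 in YFP+ samples f2, m2, m3 and m4. The groups did not overlap. YFP- differed from unstimulated samples by -2.17 and YFP+ from YFP- by -1.88, each at an exact permutation p of 0.0286 and an adjusted p of 0.0321. With log2(CPM + 1), in which 4 to 22 reads of Klrb1 count little, the latter was -0.39 (exact permutation p = 0.429). In YFP- against unstimulated samples Clec2i was higher (log2 fold change 1.79) and Klrb1 was not called (-0.38, limma adjusted p = 0.45). In YFP+ against YFP- samples Klrb1 was lower (-2.32) and Clec2i was not called (-0.44). Of the 9 comparisons of a pair, 8 gave the smallest p that 4 against 4 samples allow, 0.0286 over 70 splits, and p-values were adjusted over the 9. These tests are not independent, since pairs share Clec2i and comparisons share groups. How many other gene pairs would reach this p was not counted, and the values for YFP+ samples include the lower receptor levels given above.

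**Figure D4:**
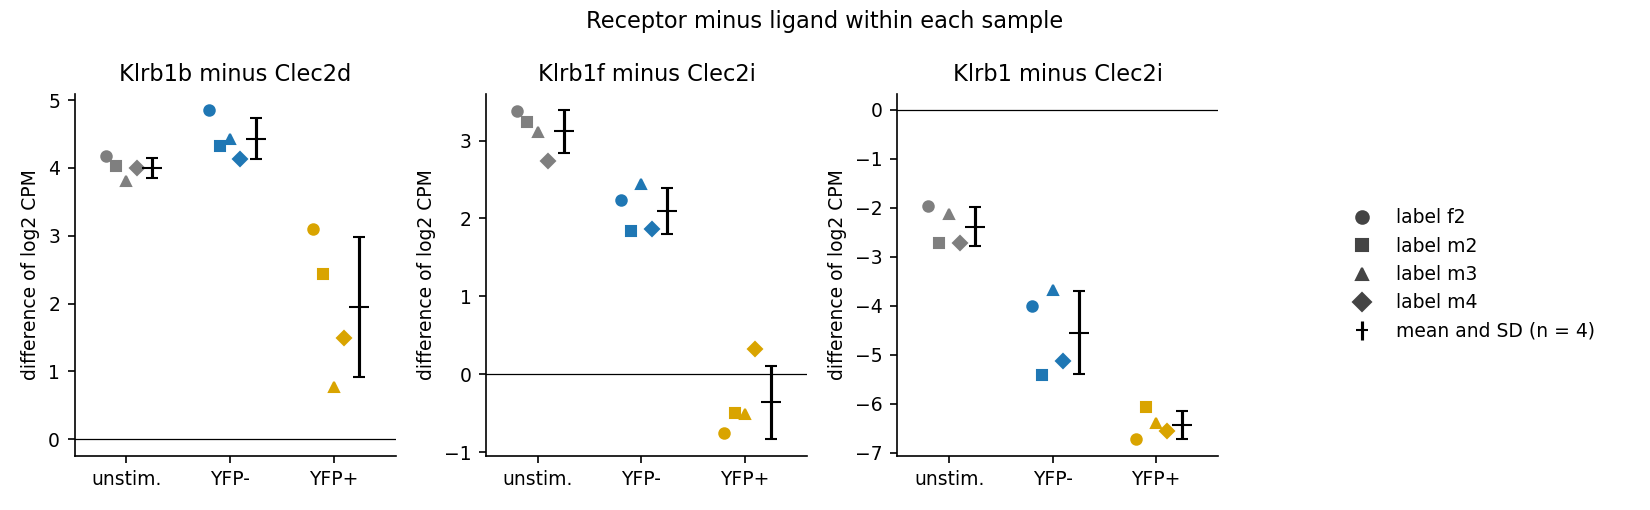
Difference of log2 CPM between a receptor gene and the gene of its ligand in each sample (y axis, its own scale in each panel), by group. Symbols are samples by replicate label and bars are mean and SD (n = 4); YFP+ samples are the lowest group in all 3 panels, and unstimulated and YFP- samples overlap only for Klrb1b minus Clec2d.

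The other Clec2 genes were close to the floor. None of Clec2e, Clec2f, Clec2g, Clec2h, Clec2l and Clec2m passed the filter, and their sum was 0.315 to 0.678 CPM (unstimulated), 0.223 to 0.622 CPM (YFP-) and 0.304 to 0.591 CPM (YFP+). Clec2h, which encodes Clr-f, had 3 to 10 reads per unstimulated library, 0 to 11 per YFP- library and 0 to 4 per YFP+ library. Among the ligand genes, only Clec2d and Clec2i could therefore be tested.

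Of 7 genes through which Nkrp1 receptors signal, 4 were lower in YFP+ than in YFP- samples, where 18.5% of all genes tested were lower. The median log2 fold change of the 7 was -0.83, beside -0.19 over all genes. Syk, the kinase recruited to activating motifs, changed by -1.91 ± 0.18 (limma adjusted p = 1.4e-05), and Inpp5d, the lipid phosphatase SHIP-1, by -0.83 ± 0.13 (limma adjusted p = 6.0e-04). Lck changed by -0.87 (limma adjusted p = 0.035) and Ptpn6, the phosphatase SHP-1, by -1.01 (limma adjusted p = 0.022). Lck did not pass in 12 and Ptpn6 in 6 of 28 alternatives, which include leaving out the YFP+ sample m4. Fcer1g, the adaptor of the activating receptors, with a log2 fold change of -0.15 (limma adjusted p = 0.35), Zap70 (-0.43, limma adjusted p = 0.43) and Ptpn11 (-0.29, limma adjusted p = 0.13) did not pass.

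In YFP- against unstimulated samples 1 of the 7 was higher and 3 were lower, where 30.2% of all genes tested were higher and 20.9% lower. The median of the 7 was -0.28, beside 0.14 over all genes. Lck, at -0.60 (limma adjusted p = 0.077), did not pass but did so in 9 of 28 alternatives, which include all 5 other scalings. Ptpn6 went from a mean of 92.2 to 364 CPM, a log2 fold change of 2.005 ± 0.29 (limma adjusted p = 7.2e-05). Syk changed by -1.81 ± 0.18 (limma adjusted p = 3.4e-06), from 27.8 to 7.93 CPM, and Inpp5d by -1.01 ± 0.13 (limma adjusted p = 3.3e-05). Fcer1g, at -0.28 (limma adjusted p = 0.046), lost its call in 14 of 28 alternatives, among them leaving out any 1 of the labels. In YFP+ against unstimulated samples Ptpn6 was higher by 0.99 (limma adjusted p = 0.0083), which did not pass without the samples labelled m2 or m4, and Fcer1g, Lck, Syk and Inpp5d were lower, where 27.5% of all genes tested were higher and 33.3% lower. The median of the 7 was -0.45, beside -0.03 over all genes.

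Of the 35 genes of the table within the cluster, 11 were tested, and 4 of these were not receptors or ligands. BC064078, a transcribed pseudogene between Clec2i and Klrb1f, had means of 17.7 CPM (unstimulated), 8.29 CPM (YFP-) and 4.32 CPM (YFP+). The change of YFP+ over YFP- was -0.94 ± 0.14 (limma adjusted p = 4.2e-04). Gm44066, a long noncoding RNA at 128842558 to 128843171 on the minus strand, between Klrb1b and Clec2i, had means of 4.51, 2.69 and 0.483 CPM, with a change of YFP+ over YFP- of -2.58 ± 0.36 (limma adjusted p = 2.7e-04). BC035044, a protein-coding gene whose first exon lies in an intron of Clec2i on the other strand, was at 10.9, 12.3 and 15.7 CPM, and its change of 0.36 ± 0.14 did not pass (limma adjusted p = 0.086) but did with 4 of the 5 other scalings. Gm5884, a processed pseudogene between Klrb1a and Klrb1, did not pass in that comparison (-0.75 ± 0.42, limma adjusted p = 0.22). Thus BC064078 and Gm44066 were lower in YFP+ than in YFP- samples and BC035044 and Gm5884 were not called, where 18.5% of all genes tested were lower. BC064078 was lower in YFP- than in unstimulated samples too (-1.10 ± 0.14, limma adjusted p = 3.0e-05). BC035044 was higher in YFP+ than in unstimulated samples (0.53 ± 0.14, limma adjusted p = 0.0051), a call lost with library totals that leave out rRNA-like features.

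**Figure D5:**
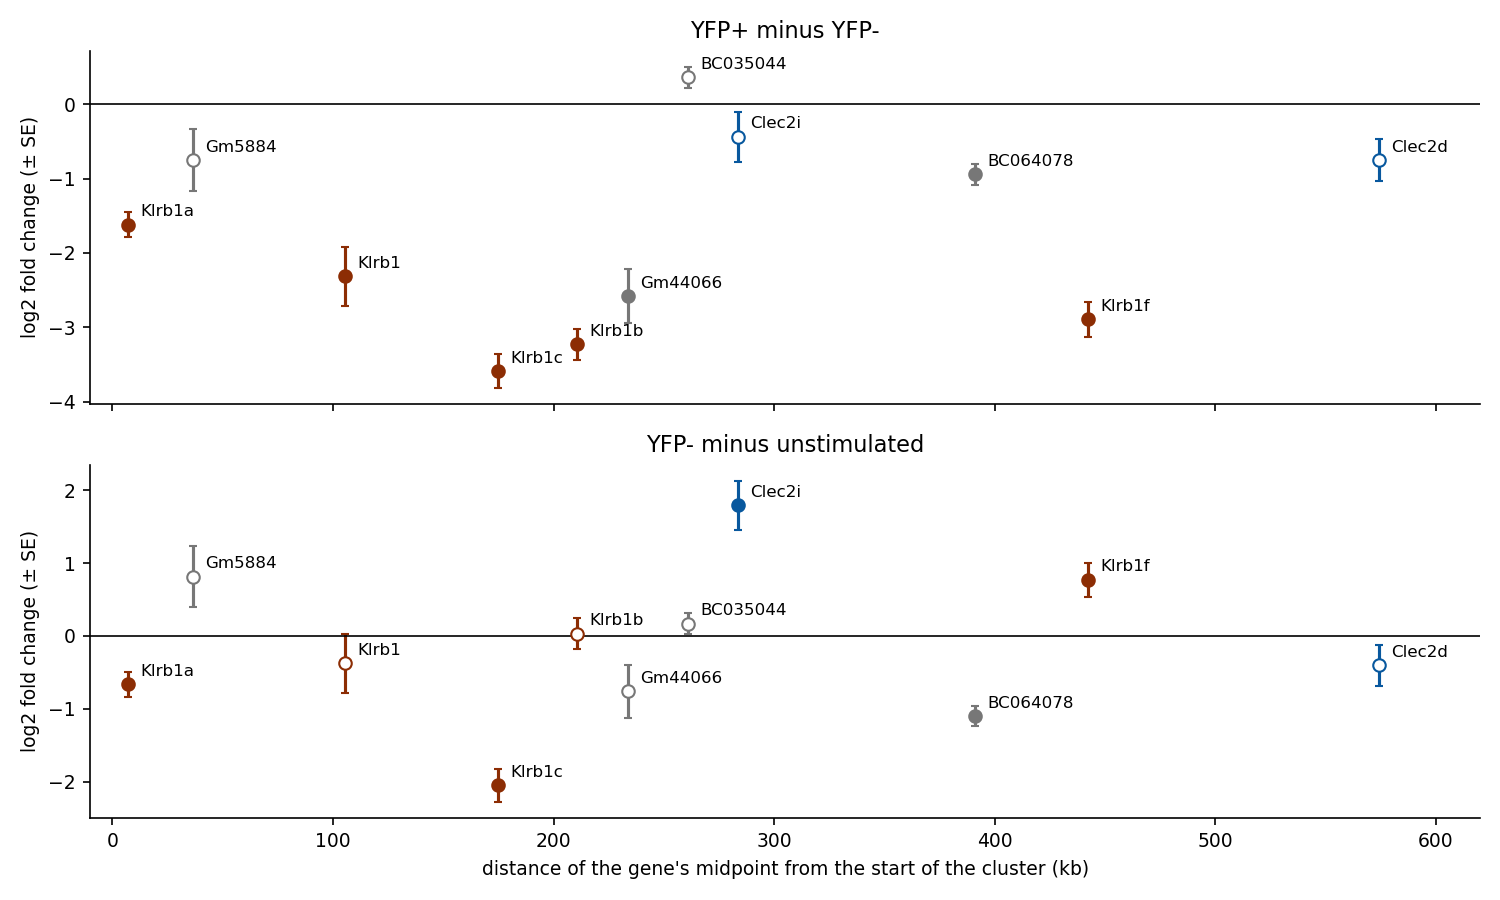
Log2 fold change (y axis, with SE bars) of the 11 tested genes of the cluster against the distance of their midpoint from its start in kb (x axis), for YFP+ minus YFP- (top) and YFP- minus unstimulated (bottom). Receptors are brown, ligands blue and other genes grey, filled where called by limma. In the top panel the 5 receptors, Gm44066 and BC064078 are filled and negative. Clec2i, BC035044 and Gm5884, which lie between receptor genes, are open, as is Clec2d.

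The promoters of the members, 250 bases before to 50 after the start in RefSeq on GRCm38, were matched for all 7 genes. Among all words of 13 bases, GAGAAACCCTCAG was the one shared by most receptor promoters, those of Klrb1a, Klrb1b, Klrb1c and Klrb1f, on the sense strand. It was found, on either strand, in those 4 of 27025 promoters (0.0148%), and not in those of Klrb1, Clec2d or Clec2i. The 3 windows that lie before the start and outside annotated exons are shown, with the shared word in capitals. That of Klrb1a lies within the span given above for the gene, which GENCODE starts further upstream. Whether the word has any part in the levels was not tested. The word was chosen by comparing these promoters, so its share is a description.
Klrb1a, chr6:128622943-128622995, minus strand: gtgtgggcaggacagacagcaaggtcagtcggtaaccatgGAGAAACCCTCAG
Klrb1b, chr6:128826379-128826431, minus strand: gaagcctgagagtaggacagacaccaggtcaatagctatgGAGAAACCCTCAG
Klrb1f, chr6:129045775-129045827, plus strand: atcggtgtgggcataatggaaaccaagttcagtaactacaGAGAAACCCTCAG
The word ended 9 bases before the start in Klrb1a, 64 in Klrb1b and 74 in Klrb1f, and lay 20 to 32 bases after it in Klrb1c. These distances follow the RefSeq starts. The coding sequences shown above begin at 128622815 (Klrb1a), 128826246 (Klrb1b), 128788481 (Klrb1c) and 129045948 (Klrb1f). On the genome, the word lay at similar distances before these positions. All 5 receptor genes were lower in YFP+ than in YFP- samples, and among them Klrb1 has a promoter that lacks the word.

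The genes whose levels were most alike to each member over the 12 samples were listed as a description, among 8111 genes with a mean log2 CPM of at least 2. The points share libraries and 3 groups, so high correlations are common: 346 genes had a Pearson r above 0.95 with Klrb1c and 94 with Klrb1a. Klrb1c was most like Pitpnc1 (r = 0.995), H2az2 and Npc2 (both 0.994), and Klrb1a most like Smpdl3a, Kxd1 and Srgap2 (all 0.986). Klrb1b was most like Lpxn (0.993), Emb (0.989) and Ifi47 (0.985). Klrb1f was most like H2-Q6 (0.988), Asb2 (0.977) and Resf1 (0.976), and Klrb1 most like Apol7e (0.971), Cnot6l (0.964) and Hmmr (0.961). For the ligands the nearest were Nfe2l2 (0.985), Synj2 and Prorp (both 0.981) for Clec2i, and Gng12 (0.961), Rn7sk (0.944) and Ikzf1 (0.925) for Clec2d, which had 1 gene above 0.95. No member was among the 3 genes most like another member, but Klrb1 and Clec2d lay below the level required and could not be listed.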

How the data were processed

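RNA-seq of 12 samples was used. Per the submitters' processing notes, bcl2fastq, STAR 2.7.9a, Subread featureCounts 2.0.3 and GRCm38 were used; per the labels' protocols, double-stranded cDNA came from 10 ng of RNA and reads were paired ends of 150 bases. Moderated log2 CPM values were deposited by the authors in 1 table, per the file headers. Of 55774 lines 287 repeated a gene and were dropped, and 0 per-sample columns lacked a sample. Reads and totals followed from the deposited log2 values (prior of 0.5 reads, largest difference 5.15e-14). Other settings of the authors' pipeline are not given in the sources used here.

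All 12 samples were fitted together, for genes whose log2 CPM exceeded 0 in 4 or more of them, in limma 3.58.1 (R 4.3.3; lmFit, contrasts, eBayes with trend), with Benjamini-Hochberg adjustment over 12364 genes and calls at an adjusted p under 0.05. The fit was tested on simulated data. Pairs were compared by 2-sided exact permutation, adjusted over 9 tests. Positions, exon lengths and coding sequences came from GENCODE M21, which held 99.4% of identifiers, and promoters from RefSeq. Other steps ran in Python 3.11.15 with biopython 1.88, matplotlib 3.10.9, scipy 1.17.1, pandas 2.3.3 and numpy 2.4.6.

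The text names all 7 members, the other Clec2 genes, the signalling genes, the cell type markers, the tested genes between the outermost members and, for each member, the 3 genes with the highest correlation. Members and lists were chosen with earlier results of these data known.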

Additional observations from a re-analysis of the deposited data

How the results depend on the processing

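Of 21 fold changes of a member, 17 kept their direction and call in all of their 27 or 28 alternatives. Klrb1b in YFP- against unstimulated samples, not called in any, changed sign from 0.03 to -0.0236 with voom weights, -0.0307 with trimmed-mean scaling, -0.11 with centring, -0.13 with library totals that leave out rRNA-like features and -0.21 with quantile normalization, and its range was -0.0845 to 0.13 over the fits that leave out samples. In YFP- against unstimulated samples the count of members called was 2 without label m2 and 3 to 4 without any other sample or label, against 4. In YFP+ against YFP- samples it was 5 to 6 in such fits, and 7 throughout in YFP+ against unstimulated samples. Klrb1 could not be fitted under the filter at log2 CPM above 2, nor could Clec2d, and an adjusted p under 0.01 removed the call of Klrb1f in YFP- against unstimulated samples.

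The replicate label as a block changed no member's call in limma. Same-label deviations of YFP+ and YFP- samples correlated at 0.054 for f2, 0.35 for m2, 0.37 for m3 and 0.17 for m4, and the last 3 were each closest to their own label. In the comparisons with unstimulated samples the correlations ran from -0.059 to 0.38. Whether the labels pair the samples is not shown, and no pairing was assumed. The block, as an exact sign-flip test over 4 labels, cannot give a p under 0.125, which it gave for every receptor minus ligand value: in YFP+ against YFP- samples -2.48 for Klrb1b minus Clec2d, -2.46 for Klrb1f minus Clec2i and -1.88 for Klrb1 minus Clec2i; in YFP- against unstimulated samples -1.02 for Klrb1f minus Clec2i and -2.17 for Klrb1 minus Clec2i; and in YFP+ against unstimulated samples -2.05, -3.48 and -4.05 for the 3 pairs. With a pseudocount of 1 CPM, Klrb1 minus Clec2i in YFP+ against YFP- samples was -0.39 (exact permutation p = 0.429). Depth limits Klrb1 and Clec2d, with 4 to 75 and 36 to 128 reads per library.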
